A study of Mus musculus with 2 samples.

Results

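The genes described here are those of WNT signalling in the embryonic mouse ureter: the WNT ligands, their frizzled receptors, the secreted inhibitors and the genes commonly read as targets of the pathway. They were chosen by gene name alone, as array probes named Wnt, Fzd, Sfrp or Dkk with a number, together with Wif1, Axin2, Lef1, Tcf7, Nkd1, Notum, Sp5, Rnf43, Znrf3, Apcdd1 and Lgr5. That gave 48 genes with 60 of the array's 39429 probes, of the 29875 genes the array names. By role they were 19 ligands, 10 receptors, 10 secreted inhibitors, 5 feedback inhibitors and 4 other targets.

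Total RNA (150 ng) of ureters dissected at E14.5 from NMRI mice was hybridised to 2 two-colour Agilent arrays, each carrying a knockout and a control sample of the same sex. The knockout is given as Pax2-cre/+;Smad4(fl/fl) in the series title and as Pax-cre/+;Smad4(fl/fl) in the sample labels, with the mark UE, read here as ureteric epithelium. The controls are labelled Smad4(fl/?), so they carry at least 1 floxed allele and no Cre is named for them. Replicate 1 was female with the knockout in Cy3 and the control in Cy5, and replicate 2 was male with the knockout in Cy5 and the control in Cy3, so sex and dye orientation cannot be told apart. Pax2 is, as background, a gene of the nephric duct and its epithelial derivatives, and the dissected ureter also holds mesenchyme outside that lineage. In such bulk RNA, fewer cells of a type and less RNA per cell cannot be told apart. The sources used here do not give the number of embryos or litters behind a sample. Each p-value below therefore rests on 2 arrays, whose spread cannot be split into biological and technical parts. Most of the variance in each test comes from a prior over all genes (9.21 degrees of freedom), and little from the gene's own spread.

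WNT proteins are lipid-modified signals that bind frizzled receptors, with LRP5 or LRP6 as co-receptors. In the canonical branch this frees beta-catenin from its destruction complex, and beta-catenin joins TCF/LEF factors at target genes such as Axin2, many of which feed back to damp the signal. In the developing mouse ureter, epithelial WNT ligands, Wnt7b and Wnt9b among them, signal to the surrounding mesenchyme, where beta-catenin is needed for the smooth muscle lineage.

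All values are log2 ratios of labelled knockout over labelled control after loess normalisation, or normalised log2 intensities of single channels. Directions follow the dyes in the labels. Read in the order of its titles, knockout over control, the authors' deposited table runs the opposite way. In the authors' deposited table, Wnt10a has a signed fold of -1.83 on replicate 1 and -2.81 on replicate 2. Turning every sign would exchange higher and lower below and leave the sizes as they are. Smad4 read -0.58 and -0.08 on replicates 1 and 2, a mean of -0.33 ± 0.36 (SD, n = 2) that missed the threshold (limma, adjusted p = 1.00). Whether its probe lies in the floxed part was not determined, so it does not check the labels. The share of probes that stood well above background was 66.6% to 69.0% in the knockout channels and 67.4% to 68.5% in the control channels. All 11 listed genes of ureter epithelium and all 8 of ureteric mesenchyme were detected in all 4 channels.

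Of the 48 genes, 40 passed the filter on dim probes, which asks for at least 2 of a probe's 4 spots well above background on both arrays in at least 1 genotype. The probe used for each of the 40 was detected in all 4 channels, so none of their ratios is a bound. Fzd5, the dimmest of the 40, read 7.03 to 7.04, near probes that were not kept, so its ratio near 0 says little. The other 8 (Wnt2b, Wnt3, Wnt3a, Wnt7a, Wnt8a, Wnt8b, Wnt10b and Dkk4) are not tested here. No spot of Wnt2b, Wnt3, Wnt3a, Wnt7a, Wnt8a or Dkk4 was well above background in any channel. Wnt10b had 2 and 0 such spots in the knockout channels of replicates 1 and 2, against 1 and 3 in the control channels. The brighter of the Wnt8b probes had 1 and 2 spots in the knockout channels, against 4 and 1 in the control channels.

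The ligands with the highest ratios were Wnt10a, Wnt4 and Wnt6, and the sequences that were hybridised are shown because these values rest on 4 probes. Each is written 5′ to 3′ in lower case on the plus strand of the array design's mm9 build. For 3 of them the first 30 of 60 bases are given. Whether these probes lie in coding or untranslated sequence was not determined. The second Wnt4 probe, given whole, has 60 bases but spans 569 bases of the genome, so it joins stretches that are apart there. The remaining Wnt4 probe lies in 1 unbroken stretch.
Wnt10a, chr1:74850633-74850692: tttcacttaacagatatttatttttgcgct
Wnt6, chr1:74831461-74831520: ttcctcagaattactgggatggatgggtga
Wnt4, chr4:136855342-136855401: tatgaggctccttggcattgtgacatcccc
Wnt4, second probe, chr4:136851690-136852258: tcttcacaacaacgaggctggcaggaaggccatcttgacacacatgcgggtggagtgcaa

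Wnt10a, a ligand known in mice for roles in tooth, hair follicle and skin, was the member that passed the test. Its normalised log2 intensity was 8.86 and 8.64 in the knockout channels of replicates 1 and 2, against 8.24 and 7.61 in the control channels. Both knockout channels lay above both control channels. The share of all genes with channels separated in this way was not counted. Here and below such separation is a description and no support for a difference. The log2 ratio was 0.61 on replicate 1 and 1.03 on replicate 2, while the spots of the probe had an SD of 0.030 (3 spots) and 0.063 (4 spots) on these arrays. The mean ratio of 0.82 ± 0.29 (SD, n = 2, 95% interval 0.52 to 1.12) is 1.77-fold higher in labelled knockout (limma, adjusted p = 0.0422 over 20104 genes). Wnt10a was thus 1 member of 40 that passed as higher, where 0.229% of all genes did, and 0 members passed as lower, where 0.0995% of all genes did. It passed in 8 of 12 other processing settings, with adjusted p from 0.000228 to 1.00 and a log2 ratio from 0.82 to 1.18. Among the 8, Aquantile scaling between arrays alters neither the ratio nor the test. Wnt10a did not pass with every probe tested (0.0521), unpaired channels (0.0834), dim probes kept (0.767) or median centring (1.00). The knockout and control channels of these and 9 further members are drawn in the plot of channel levels.

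**Figure D1:**
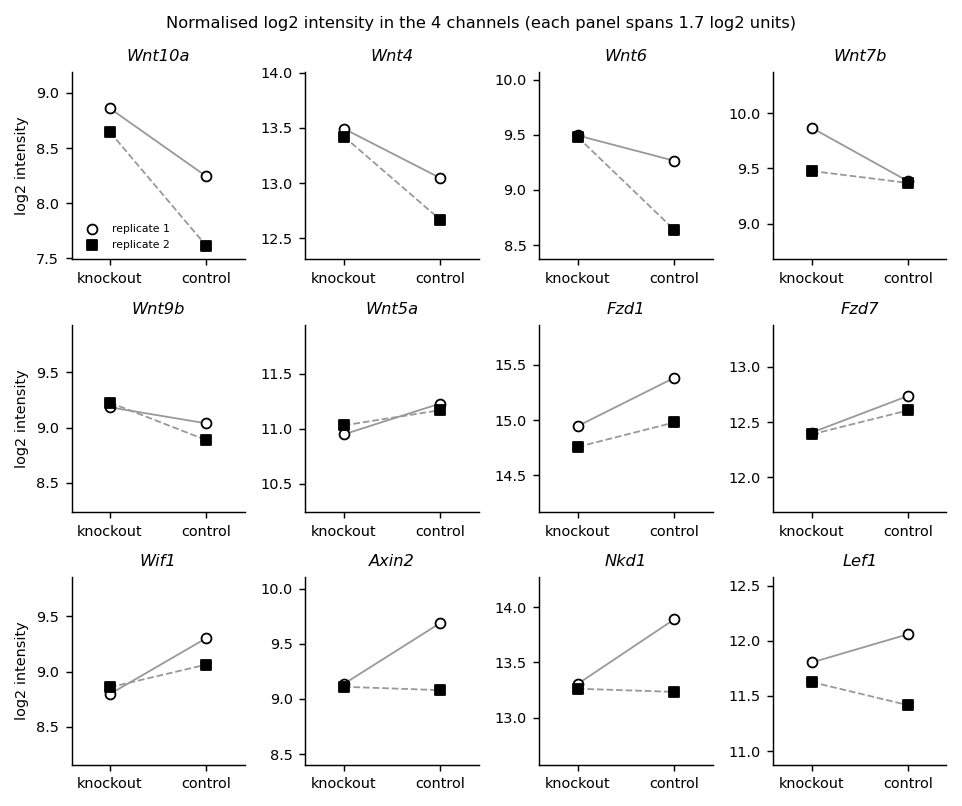
Normalised log2 intensity (y axis) of 12 members in the labelled knockout and labelled control channels, with circles for replicate 1, squares for replicate 2 and lines joining the channels of an array. Wnt10a, Wnt4 and Wnt6 lie higher in both knockout channels than in either control channel, while Axin2 and Nkd1 stand highest in the control channel of replicate 1. The share of all genes with channels separated in this way was not counted.

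Wnt4, which drives nephron formation in the kidney, read 13.49 and 13.42 in the knockout channels, against 13.05 and 12.67 in the control channels. The control channel of replicate 2 was the lowest. The mean log2 ratio of 0.60 ± 0.22 (SD, n = 2), or 1.52-fold, did not pass (limma, adjusted p = 0.158). Its second probe gave 0.48 on replicate 1 and 0.55 on replicate 2, close to the 0.45 and 0.75 of the brighter one, and both probes lay above 0 on both arrays. Wnt4 was above 0 in all 12 other settings, but several of these change only the test or the filter and keep its ratio at 0.60. It passed in 1 of the 12, the prior with trend (limma, adjusted p = 0.0229), among a range of 0.0229 to 1.00.

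Wnt6, a ligand of several embryonic epithelia, read 9.49 and 9.48 in the knockout channels, against 9.26 and 8.64 in the control channels. Its ratio was 0.23 on replicate 1 and 0.84 on replicate 2, the larger on the male array, with a mean of 0.53 ± 0.43 (SD, n = 2) that did not pass (limma, adjusted p = 0.426). Wnt6 and Wnt10a are neighbours, with 19.1 kb between their probes on chromosome 1 of mm9, and both lay above 0 on both arrays. The other neighbouring ligands among the members, Wnt10b with Wnt1, Wnt3 with Wnt9b and Wnt3a with Wnt9a, each have 1 gene that was not measured.

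Wnt7b and Wnt9b are among the ligands known from the ureteric epithelium itself. Wnt7b read 9.87 and 9.48 in the knockout channels, against 9.38 and 9.37 in the control channels, with ratios of 0.48 on replicate 1 and 0.11 on replicate 2. Wnt9b read 9.18 and 9.23 in the knockout channels, against 9.04 and 8.89 in the control channels, with ratios of 0.15 and 0.34. For each of these ligands the knockout channels lay above the control channels, by 1.23-fold for Wnt7b and 1.18-fold for Wnt9b on average. Neither passed (limma, adjusted p = 1.00 for each), and the 95% intervals of the mean log2 ratio were 0.0012 to 0.59 for Wnt7b and -0.03 to 0.52 for Wnt9b. Wnt5a, a ligand that often signals without beta-catenin, went the other way, at 10.95 and 11.03 in the knockout channels, against 11.23 and 11.17 in the control channels. Its ratio of -0.21 ± 0.10 (SD, n = 2) did not pass either (limma, adjusted p = 1.00). The remaining 6 measured ligands (Wnt1, Wnt2, Wnt5b, Wnt9a, Wnt11 and Wnt16) had means between -0.12 and 0.04. A dimmer Wnt16 probe read 0.18 on replicate 2. On replicate 1 it had 4 knockout spots and 0 control spots well above background, and no ratio is given for it.

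Of the 12 measured ligands, 5 (41.7%) lay above 0 on both arrays and 2 (16.7%) below 0 on both, where 21.7% and 24.6% of all genes did. The ligands' median log2 ratio was 0.10 on replicate 1 and 0.09 on replicate 2, beside -0.0093 and -0.0034 for all 20104 genes. The median of the ligands' mean ratios over both arrays was nearer to 0, at 0.0039, beside -0.0044 for all genes. Beside these ligands, 0 of 11 ureter epithelium genes passed in either direction in limma. An unadjusted p under 0.05 in that test was found for 3 of them, beside 914 of 20104 genes. By sign, 8 lay above 0 on both arrays, 1 below 0 on both and 2 on opposite sides. Over all genes these shares were 21.7%, 24.6% and 53.7%. The median of the 11 was 0.24 on replicate 1 and 0.17 on replicate 2, and none is at 0. With median centring 6 of the 11 lay above 0 on both arrays, with medians of 0.034 and 0.32. Their mean log2 intensity was 12.57 to 12.70 in the knockout channels and 12.39 to 12.51 in the control channels. Their mean log2 ratios ran from -0.18 to 0.53. The highest of the 11 was Krt19, a keratin of simple epithelia, which had ratios of 0.56 and 0.49 on the 2 arrays and a mean of 0.53 ± 0.05 (SD, n = 2, limma adjusted p = 0.194). Of the 4 uroplakin genes of surface urothelium, 3 passed as higher in limma, where 0.229% of all genes did. All 4 had an unadjusted p under 0.05 in that test. The 4 genes had medians of 1.21 and 1.49, and their mean intensity was 11.47 to 11.48 in the knockout channels and 9.96 to 10.39 in the control channels. The part of these cell type markers in the ligand values was not tested.

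**Figure D2:**
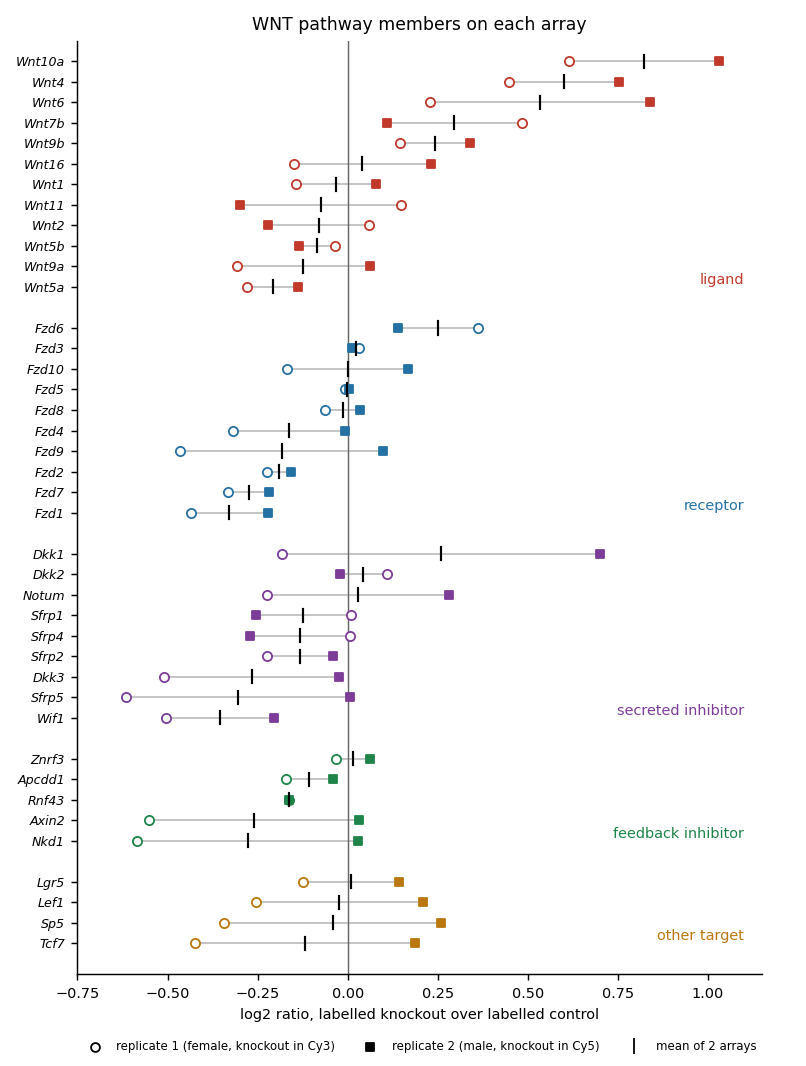
Log2 ratio of labelled knockout over labelled control (x axis) for the 40 measured members, sorted by role and mean, with an open circle for replicate 1, a filled square for replicate 2 and a bar for their mean. Wnt10a, Wnt4 and Wnt6 have the highest means among the 40, and all 4 other targets lie below 0 on replicate 1 and above 0 on replicate 2.

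Of 10 frizzled receptors, 8 lay below 0 on replicate 1 and 4 on replicate 2, where 51.7% and 51.1% of all genes did. In limma 0 receptors passed, and 2 had an unadjusted p under 0.05, beside 914 of 20104 genes. Fzd1 had the lowest mean, with 14.95 and 14.76 in the knockout channels, against 15.38 and 14.98 in the control channels. The lower control channel lay just above the higher knockout channel. Its ratio of -0.33 ± 0.15 (SD, n = 2, 95% interval -0.60 to -0.05) did not pass (limma, adjusted p = 0.918), nor did it in any of the 12 other settings. Fzd7 read 12.40 and 12.39 in the knockout channels, against 12.74 and 12.61 in the control channels, a mean ratio of -0.27 ± 0.08. Fzd2 read 14.25 and 14.18 in the knockout channels, against 14.47 and 14.33 in the control channels, a mean ratio of -0.19 ± 0.05. In both genes the control channels were the higher ones on each array, and the differences stayed under 1.5-fold.

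Probes of the same receptor gave somewhat different sizes. The other Fzd7 probe read -0.40 on replicate 1 and -0.01 on replicate 2, and the other Fzd2 probe -0.41 and -0.08. Fzd4, a receptor for Norrin as well as WNTs, read -0.32 on replicate 1 and -0.01 on replicate 2, and Fzd9 -0.47 and 0.10. Fzd6, known for its part in planar polarity of hair follicles, was the receptor with the highest mean, at 0.36 and 0.14. Fzd3, Fzd5, Fzd8 and Fzd10 had means between -0.01 and 0.02, and the sign of the Fzd5 and Fzd10 means changed with the processing, in 4 and 2 of 12 settings.

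Of 8 markers of the ureteric mesenchyme 0 passed in limma, and 5 had an unadjusted p under 0.05, beside 914 of 20104 genes. By sign, 7 lay below 0 on both arrays, where 24.6% of all genes did. The median of the 8 was -0.46 on replicate 1 and -0.12 on replicate 2. But with median centring 4 of the 8 lay below 0 on both arrays, and the median on replicate 2 was 0.03. Their mean intensity was 12.79 to 12.90 in the knockout channels and 13.03 to 13.27 in the control channels, and none is at 0. Foxf1, a transcription factor of visceral mesenchyme, had ratios of -1.004 and -0.40 on the 2 arrays, which did not pass (limma, adjusted p = 0.163). Over the 10 receptors, 4 lay below 0 on both arrays and 2 above, where 24.6% and 21.7% of all genes did. The receptors' medians were -0.20 on replicate 1 and 0.01 on replicate 2. The part of the mesenchymal markers in the receptor values was not tested.

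**Figure D3:**
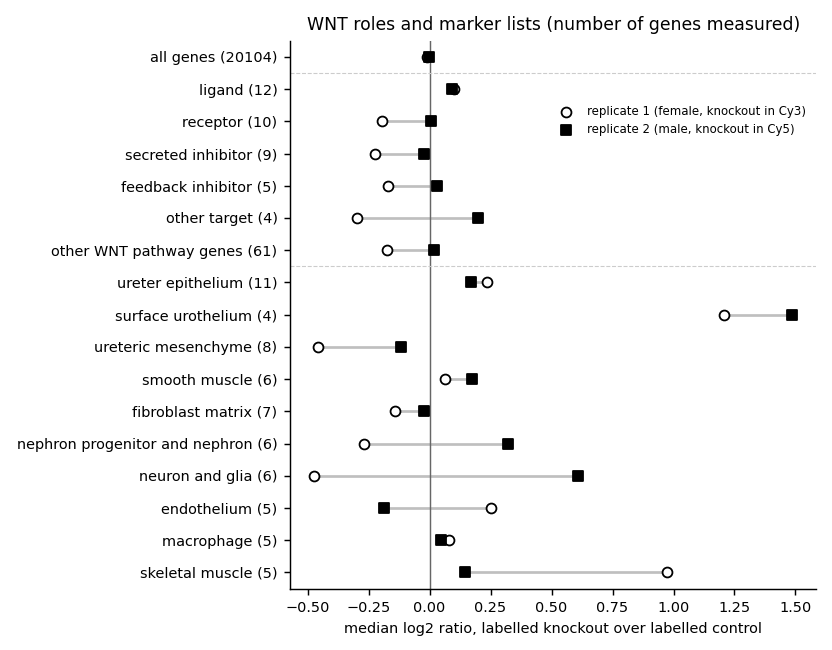
Median log2 ratio of labelled knockout over labelled control (x axis) for the WNT roles and for marker lists of cell types, with the number of genes measured in brackets, open circles for replicate 1 and filled squares for replicate 2. On the 2 arrays the medians of receptors, feedback inhibitors, other targets, other WNT pathway genes, nephron, neuron and glia, and endothelium lie on opposite sides of 0. Endothelium is the higher on replicate 1, and the rest of these on replicate 2. The medians of the surface urothelium lie at 1.21 and 1.49.

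None of the 9 measured secreted inhibitors passed in limma, and 1, Wif1, had an unadjusted p under 0.05, beside 914 of 20104 genes. Wif1, which binds WNT proteins outside the cell, read 8.80 and 8.86 in the knockout channels, against 9.30 and 9.06 in the control channels. Both knockout channels were the lower ones, at a ratio of -0.36 ± 0.21 (SD, n = 2, limma adjusted p = 0.844). Sfrp5, a decoy with a frizzled-like domain, differed on replicate 1 alone, at 8.26 and 8.44 in the knockout channels, against 8.87 and 8.44 in the control channels. Dkk3, a divergent relative of the LRP antagonists, had the same form, with ratios of -0.51 on replicate 1 and -0.02 on replicate 2. Sfrp2 and Sfrp4, further decoys, each had a mean of -0.13.

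Dkk1, which blocks LRP5 and LRP6 and is itself a target of the pathway, gave the largest difference between the arrays among the members. Its log2 intensity was 9.83 and 10.09 in the knockout channels, against 10.01 and 9.39 in the control channels. The knockout channel was lower on replicate 1, with a ratio of -0.18, and higher on replicate 2, with a ratio of 0.70. The mean of 0.26 ± 0.62 (SD, n = 2) did not pass (limma, adjusted p = 1.00). Notum, a secreted enzyme that strips the lipid from WNTs, also lay on opposite sides of 0, at -0.22 and 0.28. No secreted inhibitor lay above 0 on both arrays and 3 of 9 lay below on both, where 21.7% and 24.6% of all genes did. The secreted inhibitors' medians were -0.22 on replicate 1 and -0.02 on replicate 2.

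Of the 9 genes that feed back on or report canonical signalling, 7 lay on opposite sides of 0 on the 2 arrays, where 53.7% of all genes did. Rnf43 and Apcdd1 lay below 0 on both. Axin2, the scaffold of the destruction complex and the most used reporter of the pathway, read 9.14 and 9.11 in the knockout channels, against 9.69 and 9.08 in the control channels. The control channel of replicate 1 stood apart and the other 3 were nearly equal. The ratios were -0.55 on replicate 1 and 0.03 on replicate 2, a mean of -0.26 ± 0.41 (SD, n = 2, limma adjusted p = 1.00). Its dimmer probe read 0.00 on replicate 1, at log2 intensities of 6.98 in knockout and 6.97 in control. The brighter Wnt8b probe, which was not kept, read 6.86 to 7.04, so this reading is near the floor and says little. The Axin2 value on that array thus rests on 1 probe. On replicate 2 none of the dimmer probe's knockout spots was well above background, and no ratio is given for it.

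Nkd1, which acts on dishevelled, had the same form as Axin2. Its channels read 13.30 and 13.26 in labelled knockout, against 13.89 and 13.23 in labelled control, and the ratios were -0.58 on replicate 1 and 0.03 on replicate 2. Here the other probe repeated the pattern at -0.46 and 0.11. Rnf43 and Znrf3, ubiquitin ligases that remove frizzled from the cell surface, read -0.16 on each array for Rnf43, and -0.03 and 0.06 for Znrf3. The sign of Znrf3 changed in 1 of 12 settings. Apcdd1, a membrane-bound inhibitor, read -0.17 on replicate 1 and -0.04 on replicate 2.

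Lef1, a TCF/LEF factor that is also a target, read 11.80 and 11.63 in the knockout channels, against 12.06 and 11.42 in the control channels. The knockout channels lay between the control channels, with ratios of -0.26 on replicate 1 and 0.21 on replicate 2, and -0.23 and 0.23 on the other probe. Tcf7, another factor of that family, read -0.42 and 0.19. Sp5, a zinc finger gene, read -0.34 and 0.26, and Lgr5, a receptor for R-spondins, -0.12 and 0.14. Means of these 4 genes ran from -0.12 to 0.01 with adjusted p = 1.00 in limma for each, and the sign of the Lgr5 mean changed in 2 of 12 settings.

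All 9 feedback inhibitors and other targets lay below 0 on replicate 1, and 2 of the 9 did on replicate 2. Over all genes 51.7% lay below 0 on replicate 1 and 51.1% on replicate 2. The median of the 9 was -0.26 on replicate 1 and 0.06 on replicate 2. On replicate 1 all 9 stood below 0 under each other setting that alters the ratios of single arrays, median centring and the authors' deposited values included. With the dyes reversed between the arrays, 7 of the 9 were brighter in Cy5 on both, and 0 brighter in Cy3 on both. Over all members 17 of 40 (42.5%) were brighter in Cy5 on both arrays and 5 in Cy3 on both. For all genes the share brighter in Cy5 on both was 27.1%, and 5334 of 20104 were brighter in Cy3 on both. Nephron genes had medians of -0.27 and 0.32, and neuron and glia genes -0.47 and 0.61, on replicates 1 and 2. Other tissue lists went the other way between the arrays. Endothelium had medians of 0.25 and -0.19, gonad and adrenal genes 0.03 and -0.09, and skeletal muscle genes 0.97 and 0.15. Neither the dye, the sex nor these tissue markers were tested as a source of the targets' difference between the arrays.

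**Figure D4:**
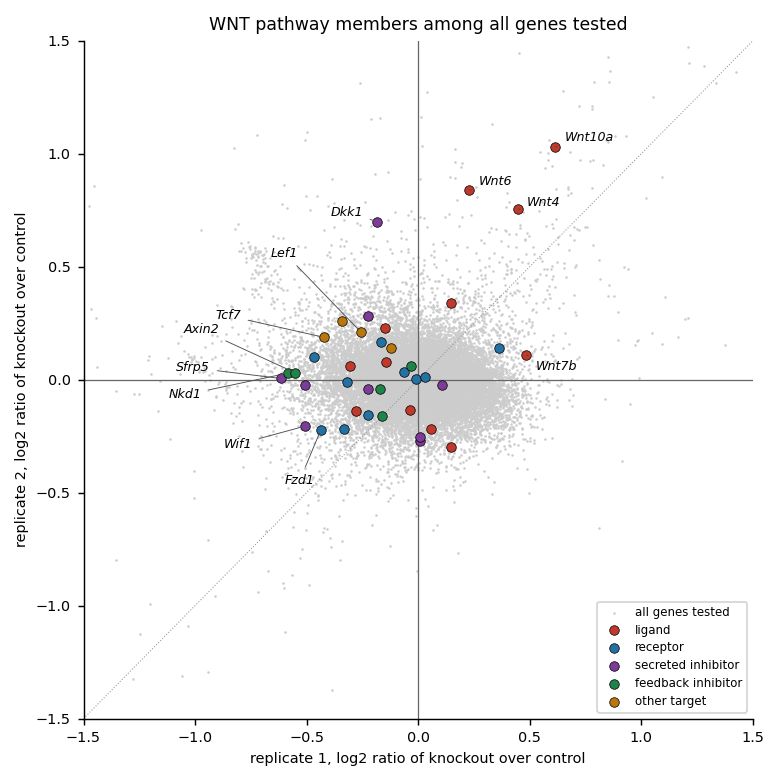
Log2 ratio of labelled knockout over labelled control on replicate 1 (x axis) against replicate 2 (y axis), with all 20104 tested genes in grey, of which 31 lie outside the axes, and the 40 measured members coloured by role. Wnt10a, Wnt4 and Wnt6 lie in the upper right, while most targets, with Axin2, Nkd1, Tcf7 and Lef1 labelled, lie left of 0 on replicate 1 and above it on replicate 2.

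TCF/LEF factors bind CTTTGAT and close variants, so the RefSeq promoter windows of GRCm38.p6 (250 bases before to 50 after each start) were searched for CTTTGAT and CTTTGTT on both strands. Windows were given for 32 of the 48 members. Either motif was found in 6 of these 32 (Wnt3, Wnt5b, Wnt11, Fzd7, Dkk1 and Sp5), a share of 18.8%, and in 10.6% of 27025 genes. CTTTGAT alone was in 3.73% of all 32851 windows and CTTTGTT in 5.85%. A match is a description of the letters and no evidence of binding. Sp5 and Dkk1 are shown since both lay below 0 on replicate 1 and above 0 on replicate 2, and Sp5 was the member whose window held both motifs. The other measured members with a motif did not share that pattern. On replicates 1 and 2 Wnt11 read 0.15 and -0.30, Fzd7 -0.33 and -0.22, and Wnt5b -0.04 and -0.14. Over all genes 53.7% lay on opposite sides of 0. Capitals mark the motif, read on the plus strand of the gene, where AACAAAG is CTTTGTT on the other strand.
Sp5, motif at -222 in the window chr2:70474673-70474972: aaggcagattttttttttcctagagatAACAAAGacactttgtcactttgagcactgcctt
Sp5, motif at -104 in the same window: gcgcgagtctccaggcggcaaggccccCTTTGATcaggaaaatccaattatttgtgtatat
Dkk1, motif at -98 in the minus-strand window chr19:30549447-30549746: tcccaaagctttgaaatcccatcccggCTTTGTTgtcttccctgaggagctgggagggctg

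Other genes of the pathway, 68 listed and 61 measured, held 1 gene that passed as higher in labelled knockout, where 0.229% of all genes did, and 0 that passed as lower, where 0.0995% did. Msx2, a homeobox gene that responds to BMP as well as WNT, read 9.76 and 9.85 in the knockout channels, against 9.11 and 8.58 in the control channels. The mean ratio of Msx2 was 0.96 ± 0.44 (SD, n = 2), or 1.95-fold (limma, adjusted p = 0.0359). Id2, an inhibitor of basic helix-loop-helix factors and likewise a BMP gene, read 0.50 on replicate 1 and 0.27 on replicate 2. Isl1, a LIM homeobox gene, read 0.01 and 0.72. Neither passed.

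No listed secretion, co-receptor or core gene passed in limma. Porcn and Wls, which lipidate and export WNTs, had means of 0.01 and 0.13, and Ctnnb1, which encodes beta-catenin, a mean of 0.03 ± 0.07 (SD, n = 2). Ror2, a receptor for Wnt5a, was lower in both knockout channels, at 12.23 and 12.18 against 12.67 and 12.47 in the control channels, with a mean ratio of -0.37 ± 0.10 (SD, n = 2) that did not pass (limma, adjusted p = 0.668). Tle3, a co-repressor of TCF/LEF factors, had a mean of -0.27 ± 0.07. Among 22 core cytoplasmic and nuclear genes 1 (4.5%) lay above 0 on both arrays and 10 (45.5%) below, where 21.7% and 24.6% of all genes did. Their medians were -0.24 on replicate 1 and -0.06 on replicate 2. For 11 planar polarity genes the medians were -0.18 and 0.10.

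Taking all 40 measured members, 7 (17.5%) lay above 0 on both arrays, 11 (27.5%) below 0 on both and 22 (55.0%) on opposite sides of 0. Over all genes these shares were 21.7%, 24.6% and 53.7%, close to those of the members. Their median was -0.17 on replicate 1 and 0.03 on replicate 2, beside -0.0093 and -0.0034 for all genes. By size, 1 member, Wnt10a, was at least 1.5-fold higher in labelled knockout on each array, where 0.264% of all genes were, and 0 members were that much lower, where 0.104% were. At an unadjusted p under 0.05 there were 7 members in limma (Wnt10a, Wnt4, Wnt6, Wnt7b, Fzd1, Fzd7 and Wif1) of 40, beside 914 of 20104 genes.

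**Figure D5:**
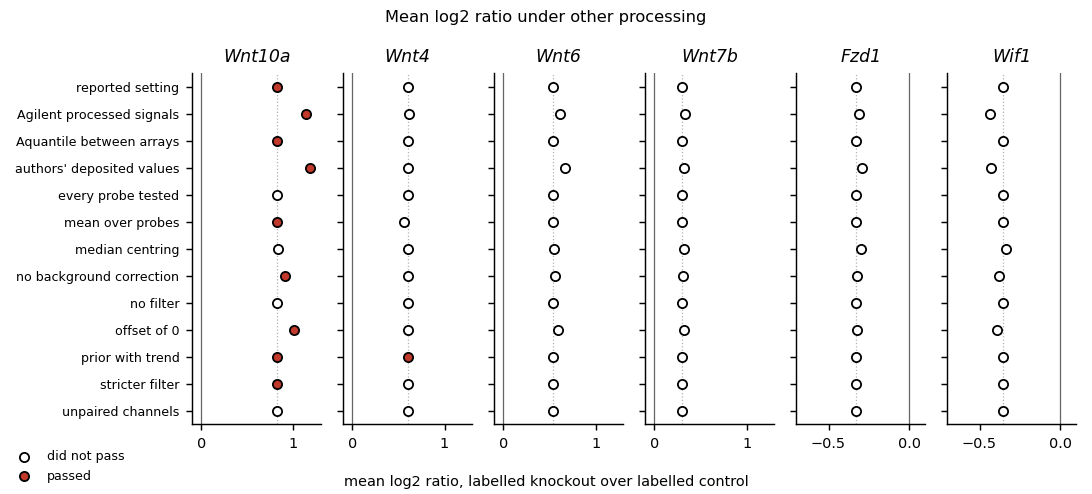
Mean log2 ratio of labelled knockout over labelled control (x axis) for 6 members under the reported and 12 other processing settings (rows), with filled circles where the gene passed an adjusted p of 0.05. The 4 ligands lie above 0 and Fzd1 and Wif1 below 0 in every setting drawn, and Wnt10a passed in 8 of the 12 others. Aquantile, the filters, every probe tested, the prior with trend and unpaired channels leave the ratio at its reported value.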

How the data were processed

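Spot intensity was deposited as the mean signal and median local background of each channel, per the file headers, which name Agilent Feature Extraction 10.7.3.1. The same deposited files hold processed intensity and a log10 ratio of Cy5 over Cy3. A further table by the authors holds a score per probe, a signed fold whose scaling and centring are not stated. Compared with Cy5 over Cy3 from the scanner, the score had a correlation across probes of 0.822 for replicate 1 and -0.739 for replicate 2, which by the dyes makes it control over knockout.

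Backgrounds were corrected with normexp (offset 50) and ratios normalised by loess in limma 3.58.1 (R 4.3.3), with control spots at weight 0. Outlier spots (3.52% and 3.66%) were left out, no spot was saturated, and the remaining spots of a probe, of 4, were averaged. The filter kept 26522 probes, and a gene was its brightest kept probe. Channel levels were also scaled between arrays (Aquantile). A two-sided limma test set the mean of the 2 ratios against 0, with a prior of 9.21 degrees of freedom, and Benjamini-Hochberg adjusted p-values over 20104 genes were read at 0.05. The number of arrays, 2, limits precision. The steps were tested on simulated data.

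Names were updated through a RefSeq table: accessions matched 28328 probes, symbols 3400 and older symbols 243, and 7458 probes stayed under the name on the array. Genes named are members that passed or were 1.5-fold apart on each array, up to 6 per role by absolute mean, Axin2, Lef1, Wnt5a, Wnt7b and Wnt9b, and of the other pathway genes those that passed and the 4 with the largest means. Others were chosen after their values were seen. The members and lists were chosen with earlier results of these data known. Alternatives changed the background correction, normalisation, filter, probe rule, prior, pairing and threshold, or used processed signals or the deposited score. Plots were drawn with matplotlib 3.10.9.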

Additional observations from a re-analysis of the deposited data

How the results depend on the processing

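The count of members that passed was 1 in the reported setting. It was 0 with median centring, with dim probes kept, with every probe tested and with unpaired channels, and 2 (Wnt10a and Wnt4) with the prior with trend. The other 7 settings each gave 1. Members at least 1.5-fold apart were 0 at a threshold of 2-fold and 2 to 4 on 1 array alone: without replicate 2 they were Sfrp5 and Wnt10a, and without replicate 1 Dkk1, Wnt10a, Wnt4 and Wnt6. The members' median of -0.08 was -0.17 without replicate 2 and 0.03 without replicate 1. A single array leaves no residual degrees of freedom, so no test was run on it. Over all genes, 66 passed in the reported setting, 0 with median centring and with dim probes kept (347 and 1097 genes at an unadjusted p under 0.05), 115 without background correction, 131 with an offset of 0, 250 with processed signals, 191 with the authors' deposited values and 156 with the prior with trend. Over the named members and 12 settings, single arrays left aside, 316 values kept the sign of the mean and the call, whatever their size, 3 changed sign without a call (Lgr5 and Znrf3), 4 (Wnt10a) lost the call and 1 (Wnt4) gained it. Many of the 316 could not change sign. Aquantile, the filters, every probe tested, the prior with trend and unpaired channels left the ratio of each measured member as it was. Aquantile left the test as it was too. On single arrays signs differ as the report gives them. The cause was not tested. Every ratio pairs 2 channels of an array, and the unpaired fit is the one with dye as a term. Dim signal left 8 members untested, for which no ratio is given, and it also limits measured members near the floor such as Fzd5.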

Other observations

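The member Dkk1 and the listed pathway genes Isl1 and Celsr3 had higher ratios on replicate 2 than on replicate 1. So did other members, Wnt6 and Tcf7 among them. Dkk1 read 0.70 there and -0.18 on replicate 1, Isl1 0.72 and 0.01, and the planar polarity cadherin gene Celsr3 0.59 and -0.33. Isl1 is also known from neurons, and the neuronal marker Tubb3 read 1.08 on replicate 2 and -0.72 on replicate 1. That was the largest difference among the 6 neuron and glia genes. Of the 6, 5 lay on opposite sides of 0 and 1 below 0 on both, where 53.7% and 24.6% of all genes did. Dkk1, Isl1, Celsr3 and Tubb3 were chosen after their values were seen, and none of them passed the limma test. The part of neuronal cells in the values of Dkk1, Isl1 and Celsr3 was not tested.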
